A study of Homo sapiens with 12 samples.

Results

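The 9 genes described here carry the Notch pathway: the receptors NOTCH1, NOTCH2 and NOTCH3, the ligands JAG1, JAG2 and DLL1, and the response genes HES1, HEY1 and NRARP. They were chosen by name, and each was read through its brightest probe whose RefSeq accession maps to its symbol, among 25275 genes that were tested. Transcripts without a matched symbol count among these genes. Their levels were measured in Daoy cells, an established human medulloblastoma (MB) line, on 12 single-colour Agilent arrays. Cells were grown through 1 passage (P1) or through 3 (P3), each of 48 h, in astrocyte conditioned medium (ACM), the supernatant of astrocytes cultured from hippocampi of newborn Sprague Dawley rats, or in full DMEM as the control, with 3 arrays for each of the groups P1 ACM, P1 DMEM, P3 ACM and P3 DMEM. The labels describe independent experiments without saying whether a number marks the same experiment in every group. All groups share the same cell line and a medium with serum, and in this model the cells meet only what astrocytes release, never the astrocytes themselves, which is a limit for a pathway whose ligands sit on the surface of neighbouring cells.

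Notch receptors are cut when a ligand on a neighbouring cell binds them, first by ADAM proteases and then by gamma-secretase, and the freed intracellular domain joins the DNA-binding protein RBPJ and a MAML coactivator to switch on target genes. HES1 and HEY1 encode repressors of the basic helix-loop-helix class that such targets are known for, and NRARP encodes a small ankyrin repeat protein that binds the same nuclear complex and dampens it. In the developing cerebellum, signalling through NOTCH2 and HES1 is known to hold granule neuron precursors, a cell of origin of MB, in a proliferating state.

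Upstream sequences of a few members are shown because the response genes are read through RBPJ and because JAG2 and NRARP are described together below. The RefSeq promoter table (GRCh38.p14) held 7 of the 9 members, and the 250 bases before the start of each gene were searched on both strands for TGGGAA, the core that RBPJ binds, and for CACNAG, the N-box that HES repressors bind (N stands for any base). TGGGAA was present in 20.9% of all 35116 promoters of that length and at least 2 copies were present in 2.90%, while CACNAG was present in 32.0%. Of the 7 members only HES1 held TGGGAA, with 2 copies in the same orientation that begin 84 and 70 bases before the start and are in capitals here, and it held 3 copies of CACNAG, which are not marked and do not overlap the others. NOTCH3 held 1 CACNAG, beginning 211 bases before the start. A match is a description of the letters, and the absence of a match concerns this window only. HES1 lies on the plus strand at chr3:194135898-194136147, NOTCH3 on the minus strand at chr19:15200996-15201245, JAG2 on the minus strand at chr14:105168777-105169026 and NRARP on the minus strand at chr9:137302272-137302521, each written 5′ to 3′ along its own strand.
HES1: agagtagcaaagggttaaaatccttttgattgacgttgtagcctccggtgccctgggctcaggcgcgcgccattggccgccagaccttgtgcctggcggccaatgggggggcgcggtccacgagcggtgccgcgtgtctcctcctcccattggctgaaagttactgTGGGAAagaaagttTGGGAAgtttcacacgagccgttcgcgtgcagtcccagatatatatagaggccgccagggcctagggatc
NOTCH3: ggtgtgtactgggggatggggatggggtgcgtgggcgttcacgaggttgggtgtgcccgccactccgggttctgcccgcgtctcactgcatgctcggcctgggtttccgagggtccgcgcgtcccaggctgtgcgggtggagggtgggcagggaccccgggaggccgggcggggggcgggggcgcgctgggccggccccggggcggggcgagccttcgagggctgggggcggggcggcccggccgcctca
JAG2: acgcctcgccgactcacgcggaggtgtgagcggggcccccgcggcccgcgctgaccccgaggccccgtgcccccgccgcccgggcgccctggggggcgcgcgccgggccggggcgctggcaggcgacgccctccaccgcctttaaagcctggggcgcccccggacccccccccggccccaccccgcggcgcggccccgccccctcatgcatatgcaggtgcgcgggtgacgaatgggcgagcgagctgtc
NRARP: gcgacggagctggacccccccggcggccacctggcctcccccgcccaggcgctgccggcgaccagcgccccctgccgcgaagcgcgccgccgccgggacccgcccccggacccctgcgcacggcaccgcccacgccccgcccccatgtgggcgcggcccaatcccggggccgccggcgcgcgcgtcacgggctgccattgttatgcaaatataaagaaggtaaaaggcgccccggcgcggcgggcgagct

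A level here is log2 of the background-corrected intensity minus the 75th percentile of the same array on that scale, so that 0 marks a probe as bright as that percentile, and levels are compared between arrays for the same probe and never between genes. The leading probe of every member was well above background on all 12 arrays. Over all probes that share was 90.9% to 94.6% on slide 1, 74.2% to 80.2% on slide 2 and 88.1% to 91.0% on slide 3. All P1 ACM arrays and 1 of P3 ACM (number 1) were on slide 1, all P3 DMEM arrays and 1 of P1 DMEM (number 3) were on slide 3, and slide 2 carried the remaining 2 of each of P3 ACM and P1 DMEM. No slide therefore held both media of the same passage. Of the 8 markers of sonic hedgehog MB, 7 were well above background on every array and ATOH1 on at most 1 array of a group. Of the 8 astrocyte markers 5 (AQP4, ALDH1L1, SLC1A3, GJA1 and ALDOC) were above background on all 12 arrays, and GFAP on 1 or 2 arrays of each group. At P1, 5 of the 8 were higher in ACM on average, with a median difference of 0.22 on the log2 scale against 0.15 for all genes, among them ALDH1L1 by 1.65 and S100B, which was above background on 3 ACM arrays and on no (0) DMEM array, while AQP4 differed by -1.37. At P3, 4 of the 8 were higher, with a median of -0.10, and the part of these markers in the results was not tested. Some other lists were also higher in ACM at P1, all 4 measured microglia markers (median 0.75) and 4 of 5 granule lineage markers (median 0.44). At P3 it was 3 of 4 (median 0.47) and 2 of 5 (median -0.08). Only 2 of these microglia markers and 3 of these granule lineage markers were above background on all 12 arrays. Of the 8 sonic hedgehog MB markers, 5 were higher in ACM at P1 (median 0.04) and 3 at P3 (median -0.17). The summed level of the astrocyte list, as a multiple of the 75th percentile and led by GJA1, ranged from 3.59 to 5.59 with ACM and from 4.13 to 5.53 with DMEM at P1, and from 3.41 to 5.65 with ACM and from 4.11 to 4.73 with DMEM at P3. In RNA of whole cultures, fewer cells that express a gene and less of its RNA per cell cannot be told apart.

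The labels of the files conflict. Beside the scanner files there is a deposited log2 table, and each of its 12 columns ranked its probes as the scanner file of another sample did, with a rank correlation of at least 0.999986, against 0.953 to 0.992 with the scanner file of its own label. The column named P1 ACM replicate 1, for example, ranked as the scanner file of P1 DMEM replicate 2. The results below use the labels of the scanner files, and the differences under the labels of the table are given for the 9 members and for the pathway genes named as past a threshold.

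With P1 ACM set against P1 DMEM, NOTCH3 was the single member of the 9 past the thresholds that the study used, a change of more than 2-fold with an unadjusted p of 0.05 or less. These thresholds were passed by 13.6% of all genes at P1, 3418 higher in ACM and 25 lower, and 1 of 9 is near that share. The share of all genes depended on the scaling, while NOTCH3 stayed past the thresholds: it was 4.49% after quantile normalization (905 higher and 231 lower), 0.882% with normexp as well (186 and 37) and 4.48% when every array had to be well above background. A slide block gave 2.1% (155 higher and 375 lower) and the labels of the table gave 1.57% (66 and 325), and in both no member (0) passed. At P3 none (0) of the 9 passed them, where 1.73% of all genes did. No gene of the whole array reached an adjusted p of 0.05 (limma, Benjamini-Hochberg) at P1 (0%) or at P3 (0%), while 6071 genes at P1 and 1838 at P3 had an unadjusted p of 0.05 or less. Among the members the count at that unadjusted p was 1 at P1 and 0 at P3. The median difference of the 9 members was -0.02 at P1 and -0.06 at P3, against 0.15 and 0.00 for all genes.

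**Figure D1:**
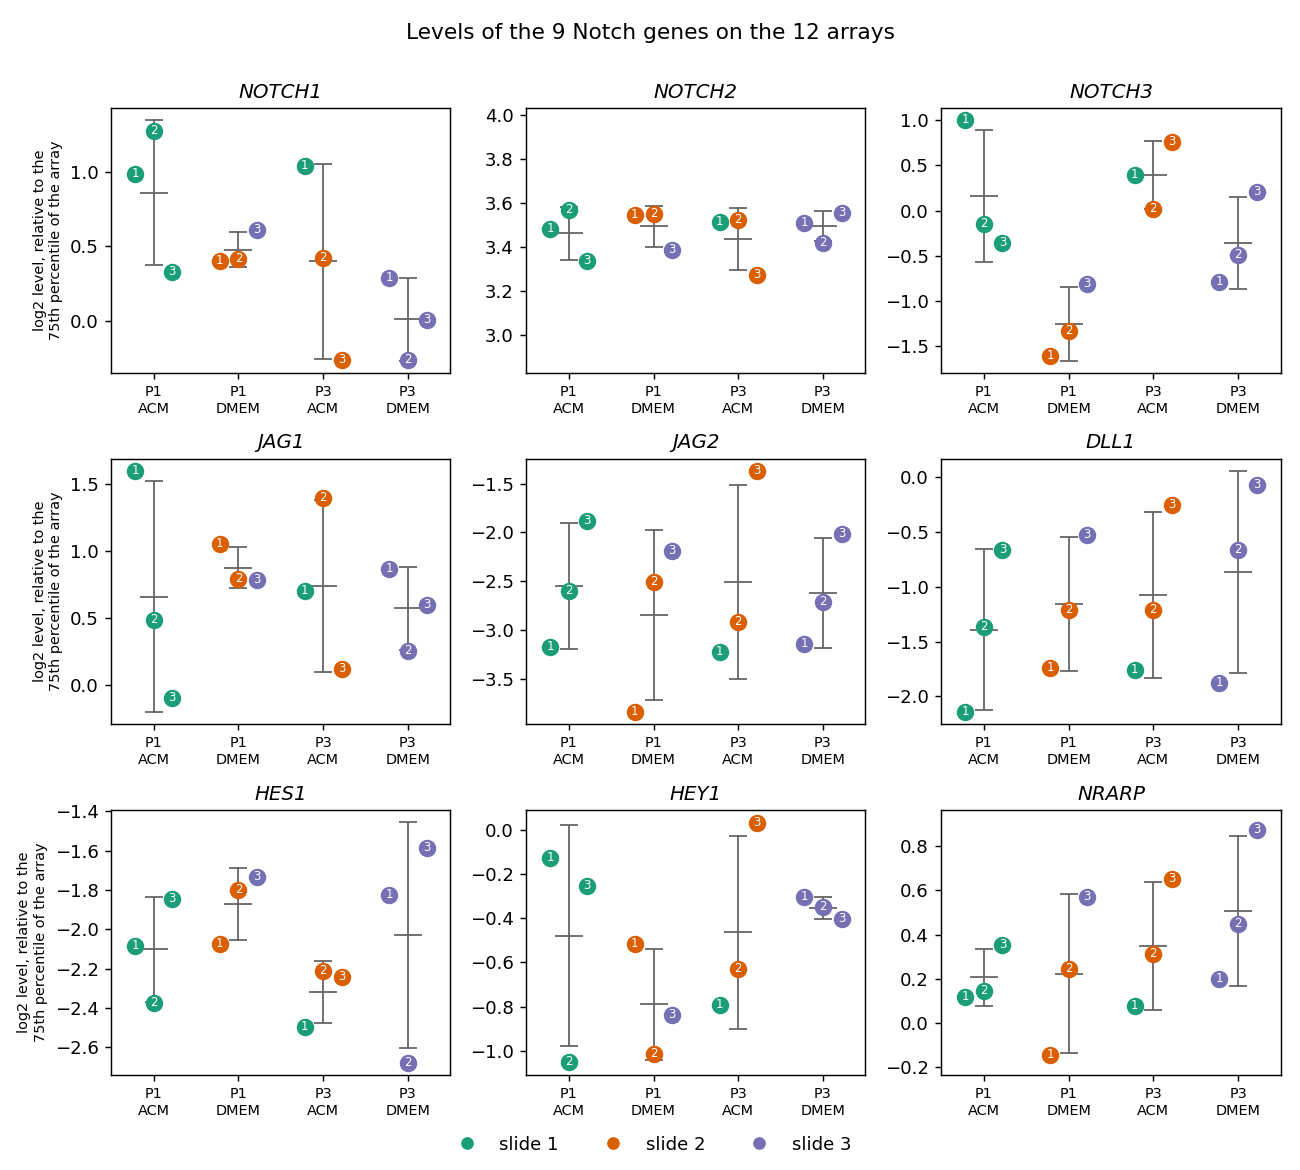
Level of the leading probe of each of the 9 genes (log2, with the 75th percentile of each array at 0) on the 12 arrays in the 4 groups. Points are arrays, with their number inside and the slide as colour, and bars are the mean and SD of 3 arrays; each panel has its own axis. The P1 DMEM points of NOTCH3 lie at -0.81 and below, under every P1 ACM point, and the points of DLL1, JAG2 and NRARP are ordered by their number in every group.

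NOTCH3 encodes a receptor best known from smooth muscle of small arteries. Its level was 1.00, -0.14 and -0.36 on the P1 ACM arrays numbered 1, 2 and 3 and -1.61, -1.33 and -0.81 on the P1 DMEM arrays, which is 6310 to 1758 against 854.7 to 645.2 in intensity. All 3 ACM arrays were above all 3 DMEM arrays, a separation that 35.9% of all genes had at P1. The difference was 1.41 on the log2 scale (SE 0.39, 95% interval 0.56 to 2.27, n = 3 and 3), a 2.67-fold higher level in ACM (adjusted p = 0.103, limma), and 1.27 above the median of all genes. The exact permutation test (two-sided) gave p = 0.1, the smallest that 3 arrays against 3 allow.

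At P3 the level of NOTCH3 was 0.40, 0.02 and 0.76 in ACM and -0.79, -0.49 and 0.20 in DMEM. These groups overlapped, as they did at P3 for all 9 members while 9.76% of all genes were separated, since P3 DMEM replicate 3 lay above P3 ACM replicate 2. The difference of 0.75 (SE 0.39, interval -0.10 to 1.61) passed neither threshold (adjusted p = 0.703, limma), and under the labels of the table it was -0.25. Between passages the ACM difference moved by -0.66 (interval -1.87 to 0.55, adjusted p = 0.847, limma; 0.06 under the labels of the table), so a change of its size between P1 and P3 was not shown. No member (0 of 9) passed the thresholds for that difference between passages, which 6.88% of all genes passed.

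The P1 DMEM arrays were also below the P3 DMEM arrays for NOTCH3. The control level was higher at P3 by 0.89 (SE 0.39, interval 0.04 to 1.74, adjusted p = 0.571, limma), with no overlap between the 3 arrays of each passage, and by 0.55 under the labels of the table. The separation was narrow, with P3 DMEM replicate 1 at -0.79 and P1 DMEM replicate 3 at -0.81. All P3 DMEM arrays were on slide 3, and P1 DMEM replicates 1 and 2 on slide 2. Within slide 3 the P3 DMEM mean was above P1 DMEM replicate 3 by 0.45. In this comparison of controls 1.72% of all genes and no member (0 of 9) passed both thresholds, and the arrays did not overlap for 3 of the 9 members (NOTCH1, NOTCH3 and HEY1) and for 18.9% of all genes.

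Several settings bear on NOTCH3 at P1. With slide as a block the difference was 1.63 (SE 0.72) and its unadjusted p of 0.0502 (limma) no longer passed. Without P1 ACM replicate 1 the difference was 1.00, at the 2-fold line. Under the labels of the table it was -0.31, so its direction turned. On slide 2, the only slide that held both media, the arrays were of different passages: NOTCH3 was 0.02 and 0.76 in the P3 ACM arrays and -1.61 and -1.33 in the P1 DMEM arrays, a gap of 1.86 between the means of 2 arrays each. Medium and slide cannot be told apart within a passage.

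**Figure D2:**
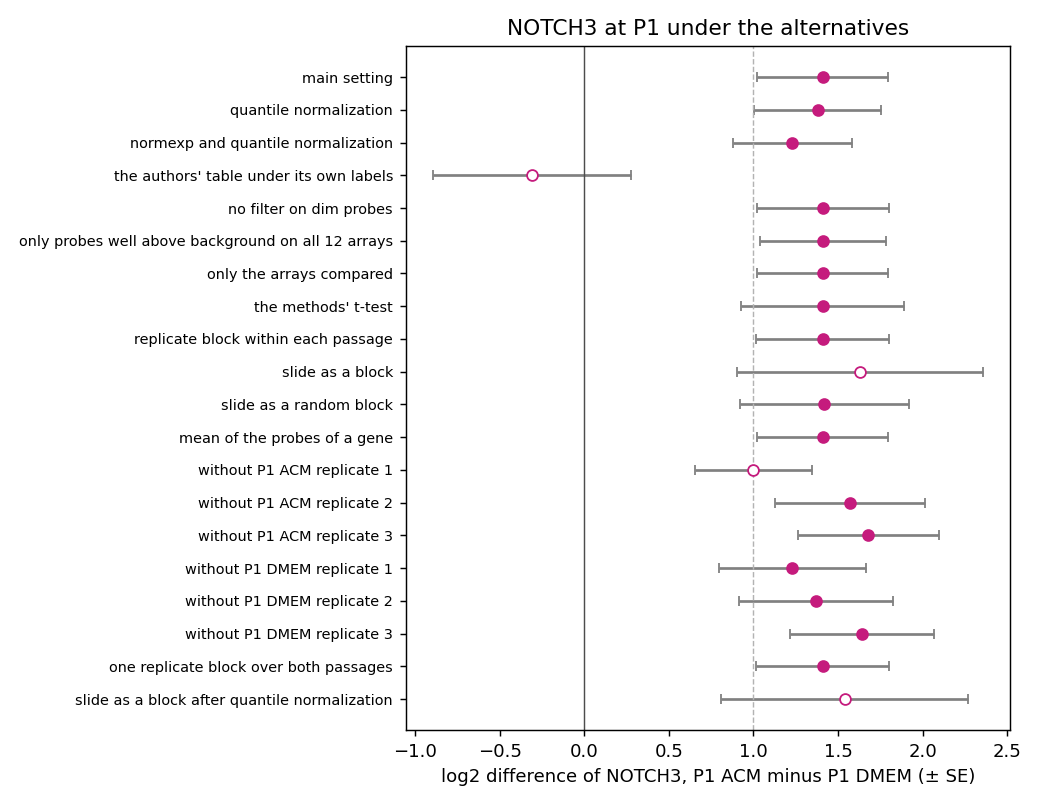
Difference of NOTCH3 between P1 ACM and P1 DMEM (log2, point and SE) under the main setting and the alternatives. Settings that leave out a P3 array are not shown. Filled points are past both thresholds, open points are not, and the dashed line is a 2-fold change. The value rounds to 1.00 or more in every setting shown except under the labels of the authors' table, where it is -0.31.

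The other receptors showed no difference past the thresholds between media. NOTCH1, the receptor first tied to human leukaemia, had levels of 0.99, 1.27 and 0.33 in P1 ACM, 0.40, 0.42 and 0.61 in P1 DMEM, 1.04, 0.42 and -0.27 in P3 ACM and 0.29, -0.27 and 0.01 in P3 DMEM. Its ACM and DMEM arrays overlapped at both passages. The difference was 0.38 at P1 (interval -0.34 to 1.11, adjusted p = 0.578, limma) and 0.39 at P3 (interval -0.33 to 1.12, adjusted p = 0.778, limma). A dimmer second probe of NOTCH1 gave -0.40 at P1 and 0.07 at P3, so the probes disagreed in sign at P1. Under the labels of the table NOTCH1 was lower in ACM, by -0.47 at P1 and -0.84 at P3, and with slide as a block it was -0.51 at P1. NOTCH2 was the steadiest member: its level lay between 3.27 and 3.57 on all 12 arrays, and only 1.74% of all genes had a smaller SD within groups than its 0.11. The ACM difference of NOTCH2 was -0.03 at P1 (interval -0.35 to 0.29) and -0.06 at P3 (interval -0.38 to 0.26), both intervals within a 2-fold change. Its second probe gave 0.17 and 0.01, and the labels of the table -0.05 and -0.17.

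Ligands are presented by one cell to the receptors of the next. JAG1 was 1.59, 0.48 and -0.10 in P1 ACM against 1.05, 0.79 and 0.78 in P1 DMEM, and 0.70, 1.40 and 0.12 in P3 ACM against 0.86, 0.25 and 0.60 in P3 DMEM. The ACM arrays spread more widely than the DMEM arrays at both passages, with an SD of 0.86 against 0.15 at P1 and 0.64 against 0.31 at P3, and the difference of these spreads was not tested. The ACM difference was -0.21 at P1 (interval -1.12 to 0.70) and 0.17 at P3 (interval -0.74 to 1.08). JAG2 differed by 0.30 at P1 (interval -0.95 to 1.54) and 0.11 at P3 (interval -1.13 to 1.36), and DLL1 by -0.23 (interval -1.45 to 0.98) and -0.21 (interval -1.42 to 1.01). These intervals reach past a 2-fold change, and they take no account of the array numbers. The labels do not give a pairing by number. It was taken at P1 from correlations among these same arrays. With the number as a block the P1 interval was -0.26 to 0.86 for JAG2 and -0.67 to 0.21 for DLL1, both within a 2-fold change, and -1.12 to 0.69 for JAG1. Set against the P1 DMEM array of the same number, DLL1 was lower on all 3 P1 ACM arrays, by -0.40, -0.16 and -0.14. Its direction turned under the labels of the table (0.39 at P1 and 0.85 at P3) and with slide as a block (1.11 and 1.09). JAG2 was 0.49 and 0.33 under those labels and 1.71 and 1.45 with slide as a block, and JAG1 was -0.14 and 0.05 under the labels. For DLL1 at P1 the slide block joins gaps between passages. On slide 1, P3 ACM replicate 1 differed from the P1 ACM mean by -0.36. On slide 2, P3 ACM replicates 2 and 3 differed from P1 DMEM replicates 1 and 2 by 0.74. The numbers in these gaps are not matched, and DLL1 is ordered by number, as described below. Their part was not tested.

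The response genes, whose levels are commonly read as a report of Notch activity, did not differ past the thresholds either. HES1, whose upstream sequence holds the TGGGAA pair printed above, was -2.08, -2.38 and -1.85 in P1 ACM and -2.08, -1.80 and -1.74 in P1 DMEM. At P3 it was -2.50, -2.21 and -2.24 in ACM and -1.83, -2.68 and -1.59 in DMEM, where replicate 2 was the lowest of all 12 arrays. Its difference was -0.23 at P1 (interval -0.82 to 0.36, adjusted p = 0.710, limma) and -0.29 at P3 (interval -0.88 to 0.30, adjusted p = 0.796, limma), again with both intervals within a 2-fold change, while under the labels of the table it was 0.14 and 0.20. HEY1 was -0.13, -1.05 and -0.25 in P1 ACM, -0.52, -1.02 and -0.84 in P1 DMEM, -0.79, -0.63 and 0.04 in P3 ACM and -0.30, -0.35 and -0.40 in P3 DMEM. The HEY1 difference was 0.31 at P1 (interval -0.30 to 0.93) and -0.11 at P3 (interval -0.73 to 0.51), against 0.19 and 0.07 under the labels of the table. NRARP differed by -0.02 at P1 (interval -0.55 to 0.51) and -0.16 at P3 (interval -0.69 to 0.37), and its dimmer probe, above background on at most 2 arrays of a group, was not tested. For NRARP the labels of the table gave -0.03 and 0.32, and slide as a block 0.56 and 0.50. At P1 the intervals of 4 members (NOTCH2, HES1, HEY1 and NRARP) lay within a 2-fold change in both directions, as they did at P3. With the number as a block those of 6 members did at P1, JAG2 and DLL1 being added. None of the intervals given here takes slide into account, so they do not bound the change apart from slide. With slide as a block the SE was larger, for NOTCH2 at P1 0.26 against 0.15.

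**Figure D3:**
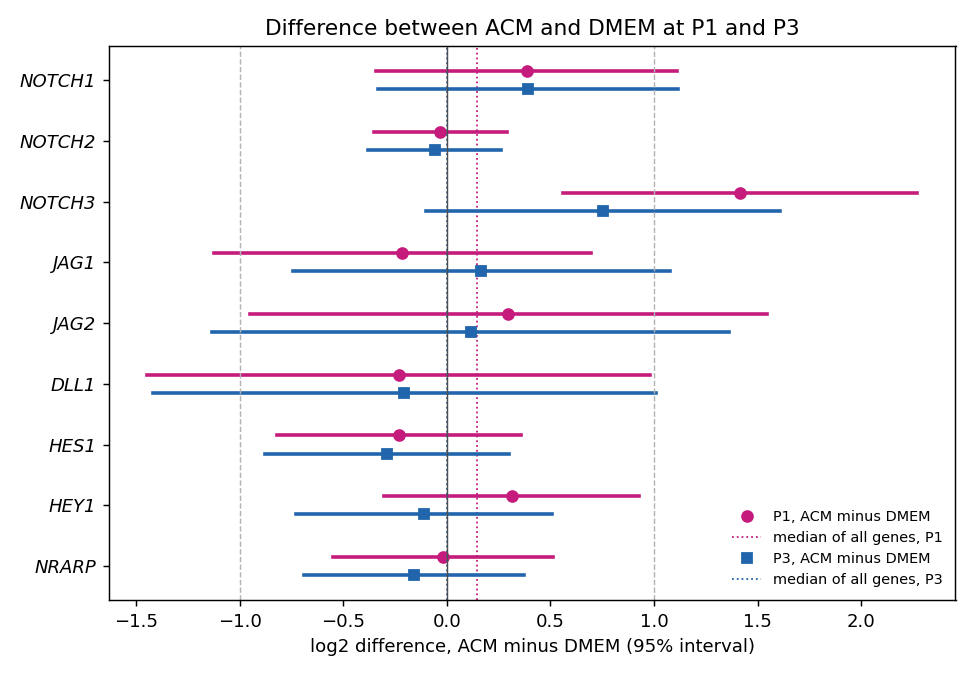
Difference between ACM and DMEM (log2, point and 95% interval) of the 9 genes at P1 (circles) and P3 (squares), with dotted lines for the median of all genes and dashed lines for a 2-fold change. Only the P1 interval of NOTCH3, 0.56 to 2.27, does not hold 0.

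A different pattern ran through DLL1, JAG2 and NRARP. In each of the 4 groups the array numbered 1 was the lowest of the group and that numbered 3 the highest. DLL1 was -2.14, -1.37 and -0.67 on the P1 ACM arrays numbered 1, 2 and 3, -1.74, -1.21 and -0.53 in P1 DMEM, -1.76, -1.21 and -0.25 in P3 ACM and -1.88, -0.66 and -0.07 in P3 DMEM. Every array numbered 1 was below every array numbered 2, whatever its medium and passage, and the arrays numbered 2 and 3 met only where P3 DMEM replicate 2 came level with P1 ACM replicate 3.

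JAG2 followed the same numbers. It was -3.17, -2.60 and -1.88 in P1 ACM, -3.84, -2.51 and -2.19 in P1 DMEM, -3.23, -2.92 and -1.37 in P3 ACM and -3.14, -2.71 and -2.01 in P3 DMEM. Over all 12 arrays the 4 numbered 1, the 4 numbered 2 and the 4 numbered 3 formed 3 ranges that did not overlap. NRARP, the feedback gene, was 0.12, 0.15 and 0.35 in P1 ACM, -0.15, 0.24 and 0.57 in P1 DMEM, 0.08, 0.31 and 0.65 in P3 ACM and 0.20, 0.45 and 0.87 in P3 DMEM. Its order within each group was that of DLL1 and JAG2, but its ranges overlapped between groups. A fixed order of the 3 numbers in all 4 groups, whichever order it was, was shared by 3 of the 9 members and by 2.52% of all genes.

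The size of this pattern can be set beside the differences between media given above. Between the arrays numbered 3 and those numbered 1, averaged over the 4 groups, DLL1 differed by 1.50 on the log2 scale (2.83-fold), JAG2 by 1.48 (2.78-fold) and NRARP by 0.55 (1.47-fold). A test of the number over the 4 groups (limma, F-test, chosen after these values were seen) gave an adjusted p = 0.0120 for DLL1, an adjusted p = 0.0433 for JAG2 and an adjusted p = 0.166 for NRARP. An adjusted p of 0.05 or less was reached by 0.815% of all genes, 206 of 25275. That count was 459 after quantile normalization, 760 with normexp as well, 143 without the filter on dim probes, where JAG2 was no longer called (adjusted p = 0.0571, limma), and 6 with slide as a block. For the other 6 members the adjusted p was 0.540 to 0.783 (limma), JAG1 having the lowest of them with a difference of -0.70.

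This pattern too rests on the labels and on the slides. Under the labels of the table it was absent from all 3 genes: the difference between the columns numbered 3 and 1 was -0.03 for DLL1, -0.15 for JAG2 and 0.03 for NRARP, and no gene of the array (0) reached an adjusted p of 0.05 (limma). With slide as a block the differences were 1.61, 1.54 and 0.51, and the adjusted p was 0.0639, 0.189 and 0.443 (limma). Between media at P1 a slide block gave 1.71 for JAG2 and 0.56 for NRARP. That fit held no term for the number. It set arrays of unlike number and passage against each other, so these sizes are not compared. Leaving out P1 ACM replicate 1, P1 ACM replicate 3, P3 ACM replicate 3 or P3 DMEM replicate 1 removed DLL1 from the genes called, at an adjusted p of 0.0674, 0.0662, 0.0502 and 0.0570 (limma), while of the 12 arrays left out in turn only P3 ACM replicate 2 kept JAG2 called (adjusted p = 0.0421, limma). Within the ACM arrays alone the difference was 1.49 for DLL1 and 1.57 for JAG2, and within the DMEM arrays alone 1.51 and 1.38.

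**Figure D4:**
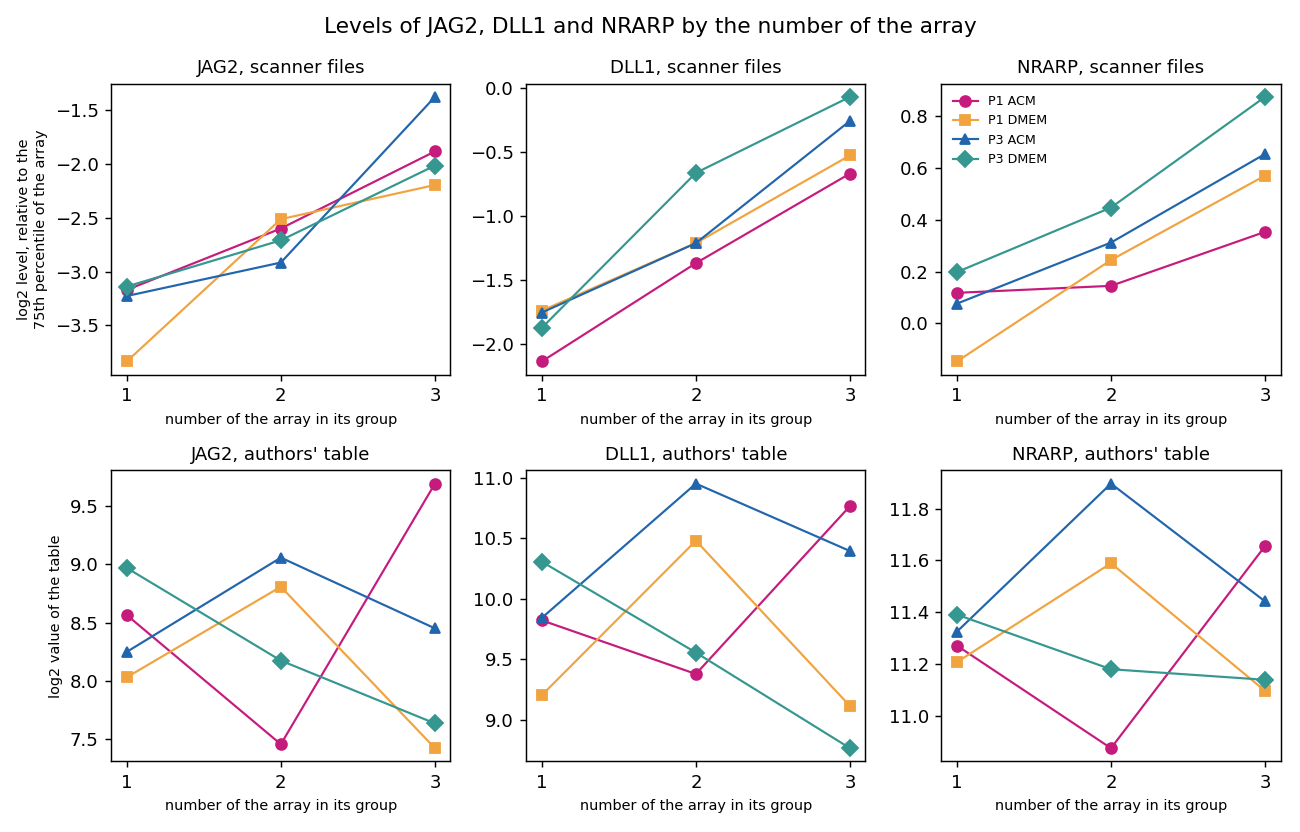
Levels of JAG2, DLL1 and NRARP against the number of the array in its group, with a line for each of the 4 groups; upper row from the scanner files (log2, with the 75th percentile of each array at 0), lower row from the authors' table (log2) under its own labels. In the upper row the point numbered 1 is the lowest and that numbered 3 the highest of every line, and in the lower row this holds for no line.

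Across the 12 arrays the 3 genes ran together, with a Pearson r of 0.90 between DLL1 and NRARP, 0.85 between JAG2 and DLL1 and 0.83 between JAG2 and NRARP, where the points share slides, numbers and the scaling of each array. JAG1 ran the other way, with r of -0.67 against JAG2, -0.65 against DLL1 and -0.43 against NRARP. So did NOTCH1 (-0.44, -0.64 and -0.59 in the same order) and NOTCH2 (-0.65, -0.51 and -0.43). HES1 and HEY1 followed neither the 3 genes nor JAG1 closely, with r of 0.33 and 0.27 against NRARP and 0.10 and -0.14 against JAG1. Among 15518 other genes with a symbol and a probe well above background on all 12 arrays, the gene most like DLL1 was TNS3 (r = 0.96, Spearman's rho = 0.93), that most like JAG2 was RIMS4 (r = 0.98, rho = 0.99) and that most like NRARP was SIN3A (r = 0.96, rho = 0.94). For NOTCH3 it was CREB3L3 (r = 0.93), for NOTCH1 ADCY4 (r = 0.98), for NOTCH2 PKIA (r = 0.91), for JAG1 RABGEF1 (r = 0.89), for HES1 ATXN1 (r = 0.93) and for HEY1 HOXA13 (r = 0.93). These are the highest values of a search over many genes on 12 arrays and are given as descriptions.

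The rest of the pathway was read from a list of 66 further genes, of which 65 were measured. At P1, 2 of the 65 (3.08%) were past the study's thresholds, both higher in ACM, against 13.6% of all genes, and at P3 none (0) were, against 1.73%. Of the 65, 60 were well above background on all 12 arrays. With only such probes the count at P1 was 1, against 4.48% of all genes. After quantile normalization none (0) of the 65 were at P1, against 4.49% of all genes, and none (0) after normexp with it, against 0.882%. Under the labels of the table the count was 1 at P1 and 2 at P3, against 1.57% and 6.11% of all genes. The median difference of the 65 genes was -0.04 at P1 and -0.06 at P3, with 28 and 30 genes higher in ACM. An adjusted p of 0.05 (limma) was reached by none (0) of them at either passage.

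HEYL, a target gene of the same family as HEY1, was 1 of the pair. It was -3.77, -3.81 and -3.80 in P1 ACM and -5.24, -4.74 and -4.40 in P1 DMEM, with no overlap, and the difference of 1.00 (SE 0.23, 2.00-fold, adjusted p = 0.103, limma) lay at the edge of the fold threshold. After quantile normalization it was 0.41, with slide as a block 0.64, and under the labels of the table -0.29. At P3 HEYL differed by 0.01. DTX4, a ubiquitin ligase of the Deltex family, was -4.97, -5.54 and -4.56 in P1 ACM and -6.44, -6.05 and -5.71 in P1 DMEM. The difference was 1.04 (SE 0.36, adjusted p = 0.121, limma), but only 1 of the 3 P1 DMEM arrays was well above background and quantile normalization left 0.15. Under the labels of the table it was 0.54.

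A replicate block within each passage paired the arrays of P1 and those of P3 by number. With it the count at P1 was 5 in place of 2, which is 7.69% of the 65 against 13.8% of all genes in that fit. Added to HEYL and DTX4 were DLL4, an endothelial ligand (1.05, adjusted p = 0.184, limma), the coactivator MAML3 (1.51, adjusted p = 0.156, limma) and the Deltex gene DTX1 (1.02, adjusted p = 0.158, limma). DLL4 was above background on 1 of the 3 P1 DMEM arrays, and its difference was -0.87 with slide as a block, 0.00 once arrays were quantile normalized and -0.53 under the labels of the table. MAML3 turned to -2.50 with slide as a block and to -0.68 under the labels. DTX1, above background on 2 of the 3 P1 DMEM arrays, was 2.58 and -0.44 in these settings. Without the block, no gene of the machinery that cuts the receptor or reads its fragment passed the thresholds at P1, none (0) of 9 proteases and their partners and none (0) of 8 genes of the nuclear complex, whose medians at P1 were -0.02 and -0.22. ADAM10, which makes the first cut, differed by -0.02 at P1 and -0.04 at P3. RBPJ itself was 2.24 ± 0.06 (SD, n = 3) in P1 ACM and 2.44 ± 0.14 (SD, n = 3) in P1 DMEM, a difference of -0.20 (adjusted p = 0.618, limma).

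Between P3 and P1 in DMEM, 3 of the 65 genes (4.62%) were past the thresholds, all lower at P3, against 1.72% of all genes. They are named after their values were seen. CCND1, the cell cycle gene for cyclin D1, was 2.05, 2.37 and 2.35 in P1 DMEM and 1.11, 0.75 and 1.65 in P3 DMEM, a difference of -1.09 (adjusted p = 0.571, limma). SOX9, a transcription factor of neural and glial progenitors, differed by -1.16 (adjusted p = 0.571, limma) and CTBP1, a corepressor, by -1.04 (adjusted p = 0.571, limma). For all 3 the DMEM arrays of the passages did not overlap, a separation that 18 of the 65 and 18.9% of all genes had. All P3 DMEM arrays were on slide 3, and P1 DMEM replicates 1 and 2 on slide 2. Under the labels of the table the differences were 0.08 for CCND1, -0.37 for SOX9 and 0.07 for CTBP1.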

How the data were processed

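RNA of Daoy cells in ACM or DMEM at P1 and P3 was measured on 12 arrays, grouped by their labels. The authors deposited background-corrected intensity values of each spot from Agilent Feature Extraction 11.0.1.1, not normalized between arrays. The deposited table of log2 values has column medians of 9.016 to 9.017; its values rank in the direction of the intensities, while its scaling and centring are not given in the sources used here, and it was used only as an alternative, under its own labels.

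Here control and outlier spots were left out, spots of a probe were averaged, and the 75th percentile of each array was subtracted on the log2 scale. Probes well above background on all 3 arrays of at least 1 group were kept, 31078 of 34127. Accessions of 25771 probes (75.5%) matched the RefSeq gene table of GRCh38.p14. Probes without a match were counted as genes under the name they carry on the array, so shares of all genes include them. A gene was read through its brightest kept probe. All 12 arrays entered 1 limma 3.58.1 fit (R 4.3.3; lmFit, contrasts.fit, eBayes) of 4 group means, with 8 residual degrees of freedom, two-sided, with Benjamini-Hochberg adjustment over all kept probes. The code was tested on simulated data. The number of arrays limits the precision.

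The members, the pathway list and the markers were chosen with earlier results of these data known. Named pathway genes were the up to 5 with the smallest p past the study's thresholds at each passage, and the most alike gene was the 1 with the highest Pearson r. Deviations from the group means of arrays with the same number correlated by 0.42, 0.19 and 0.27 across probes at P1, so these numbers were taken to pair the P1 arrays, and by 0.23, -0.19 and 0.06 at P3. The replicate block within each passage paired the P3 arrays as well and left fewer residual degrees of freedom than the main fit. As alternatives, arrays were quantile normalized, also after normexp on median spot signals (offset 50), and the others were the table, the filter on dim probes, the arrays compared alone, the methods' t-test, replicate and slide blocks, the mean of a gene's probes and each array left out. The test of the replicate number, a replicate block over both passages and the slide block after quantile normalization were added after seeing the data.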

Additional observations from a re-analysis of the deposited data

How the results depend on the processing

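The count of members past the study's thresholds at P1, 1 of 9, fell to 0 with slide as a block, with slide as a block after quantile normalization and under the labels of the authors' table; the causes were not tested. Leaving out each array gave 0 to 1 at P1, at P3 and for P3 against P1 in DMEM, and 0 for the difference between passages. The members that passed in this way were NOTCH3 throughout: it reached 1.03 at P3 without P3 DMEM replicate 3, and it passed between the DMEM passages without P1 DMEM replicate 3 or without P3 DMEM replicate 1. The replicate block within each passage kept the counts of members (1 at P1, 0 at P3) and changed no call of a member, with adjusted p = 0.131 for NOTCH3 at P1 (limma). The methods' t-test called NOTCH3 at P1 too. The count of other pathway genes at P1, 2, was 0 after quantile normalization and after normexp with it, 1 under the table, 1 with probes well above background on all 12 arrays, 1 with slide as a random block, 1 with slide as a block after quantile normalization, 5 with the replicate block within each passage, 4 with 1 replicate block over both passages and 0 to 5 with an array left out. At P3 it was 2 under the table, 1 with slide as a block before or after quantile normalization, and 0 to 1 with an array left out.

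Several differences turned sign, those of NOTCH3 and of the array numbers among them. Under the table's labels NOTCH1 was -0.47 at P1 and -0.84 at P3, NOTCH3 -0.31 and -0.25 (0.06 for the change between passages), DLL1 0.39 and 0.85, HES1 0.14 and 0.20, HEY1 0.07 at P3, NRARP 0.32 at P3 and HEYL -0.29 at P1, and the difference between numbers 3 and 1 was -0.03 for DLL1 and -0.15 for JAG2. With slide as a block DLL1 was 1.11 and 1.09, HES1 0.11 and 0.01, NRARP 0.56 and 0.50 and NOTCH1 -0.51 at P1. That block joins the media of a passage only through arrays of the other passage. After quantile normalization with that block DLL1 was 1.13 and 1.00, NRARP 0.56 and 0.49, HES1 0.23 at P1 and NOTCH1 -0.52 at P1. Slide as a random block gave DLL1 0.14 at both passages and NRARP 0.13 and 0.03. Quantile normalization gave JAG2 -0.01 and -0.06 and NOTCH2 0.06 and 0.08, and normexp with it JAG2 -0.03 at both and NOTCH2 0.03 at P3. The mean of the probes gave NOTCH1 -0.01 and NOTCH2 0.07 at P1. With an array left out the ranges at P1 and P3 were -0.59 to 0.14 and -0.71 to 0.19 for DLL1, -0.68 to 0.16 and -0.16 to 0.48 for JAG1, -0.20 to 0.62 and -0.45 to 0.48 for JAG2, -0.09 to 0.03 and -0.10 to 0.02 for NOTCH2, -0.20 to 0.16 and -0.31 to 0.02 for NRARP and, at P3, -0.36 to 0.05 for HEY1.

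Without 1 array the genes called by replicate number were 7 to 415 in place of 206, lowest without P3 DMEM replicate 1. Each group has 3 arrays and medium is tied to slide within a passage. At P1 the main scaling put the median of all genes at 0.15, and quantile normalization at 0.00.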
